A study of Mus musculus with 6 samples.

Results

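Rab GTPases are the genes described here, and they were measured in primary mouse hepatocytes that had or had not been given nuclear CREBH. Members were all genes whose array feature carried exactly 1 gene symbol made of Rab, a number and at most 1 letter. With the brightest feature kept for each gene, 58 members were found among 18820 genes. They were read by 61 features, and Rab2a, Rab5b and Rab11b had a dimmer feature beside the one used. Another 3 features paired a Rab gene with a different gene and were left out. Of 59 mouse Rab symbols of this form in RefSeq, 58 were measured, and Rab26 was not analysed here.

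The hepatocytes came from male wildtype C57BL/6J mice 8 to 10 weeks old, so both groups kept their own copy of Creb3l3, the gene that encodes CREBH. Dishes of 60 mm received a control adenovirus that carries green fluorescent protein (Ad-GFP, 3 dishes) or one encoding the nuclear form of mouse CREBH (Ad-nuclear CREBH, 3 dishes). Both viruses were added at a multiplicity of infection of 100 particles per cell, and RNA was collected 24 h later. The CREBH cDNA was placed behind a CMV promoter, which is not restricted to hepatocytes. Each dish was read on its own array. The sources do not say whether dishes came from separate animals, so the p-values below measure the spread between dishes, which may be technical. Only 3 arrays per group limit the precision of every value.

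Rab proteins are small GTPases that sit on the membranes of particular organelles and direct how vesicles form, move and fuse. Guanine nucleotide exchange factors (GEFs) switch them on by loading GTP, GTPase-activating proteins (GAPs) switch them off, and effectors bind the active form and carry out the traffic step. In hepatocytes Rab proteins serve the secretion of plasma proteins and lipoproteins, the uptake and recycling of receptors, transcytosis to the bile canaliculus, and the turnover of lipid droplets and autophagosomes. CREBH itself is made as a protein of the endoplasmic reticulum (ER) that is cut in the Golgi to release its nuclear fragment, a step that the nuclear form does not need.

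Mean log2 expression of Creb3l3 was 8.24 with Ad-GFP and 10.34 with Ad-nuclear CREBH (n = 3 each). The direction is that of the labels, but the array cannot separate the viral transcript from that of the mouse gene. Hepatocyte markers were bright, with a summed linear level over 9 genes of 27158 to 28410 in Ad-GFP and 29620 to 33171 in Ad-nuclear CREBH. Of these, Apoa1 rose and Tat, Asgr1 and Cps1 fell. Among 10 macrophage markers 3 fell (Cd68, Cd5l and Lyz2) and 1 rose (Csf1r), or 40.0% called, beside 37.4% of all genes. Their summed level, most of it from Cd68, was 2674 to 3617 in Ad-GFP and 1192 to 2554 in Ad-nuclear CREBH. Of these 10 markers 6 stayed below the median of all genes in both groups, the macrophage-restricted Clec4f and Vsig4 among them. Marco, which was not called, Lyz2 and Cd68 stayed above that median in both groups, and Csf1r went from below it to above it. Summed levels of endothelial, stellate cell and cholangiocyte markers overlapped between the groups, although single markers were called. Epcam (1.74) and Oit3 (0.56) rose and Krt19 (-1.06) and Reln (-1.90) fell on the log2 scale. Col1a1, a fibroblast collagen that did not pass, was at 7.30 and 7.51 in Ad-nuclear CREBH replicates 2 and 3 and between 4.77 and 5.25 on the other arrays. In the same 2 dishes Col1a2 was at 5.76 and 6.02 (4.35 to 4.42 elsewhere) and Des at 4.51 and 4.71 (3.83 to 4.02 elsewhere). Neither passed, and the other stellate cell and fibroblast markers, Col3a1 among them, did not show this step. The summed level of that list was 208 to 235 in Ad-GFP and 161 to 377 in Ad-nuclear CREBH. In bulk RNA, fewer cells of a type and less RNA per cell cannot be told apart, and the part of such cells in the Rab values was not tested. The arrays numbered 1 stood slightly apart within both groups, with a mean correlation of 0.986 with the other Ad-GFP arrays and 0.991 with the other Ad-nuclear CREBH arrays. At most 11 of 18820 values on an array were identical to those of another array.

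Expression of 16 Rab genes rose and that of 11 fell in the limma fit, with p adjusted by Benjamini-Hochberg over the 18820 genes and called under 0.05, while 31 did not pass. These 27 are 46.6% of the members, beside 37.4% called among all genes. The risen members were 27.6%, beside 19.2% of all genes, and the fallen members were 19.0%, beside 18.2%. The groups did not overlap for 32 members (55.2%, beside 49.4% of all genes), of which 20 were higher (26.2% of all genes were) and 12 lower (23.1% of all genes) in Ad-nuclear CREBH. The median log2 fold change over the members was 0.02, beside 0.04 over all genes. The largest changes were rises. The study's criteria were an unadjusted p under 0.001, a rise over 2-fold or a fall to less than 0.5-fold, and an expression value over 300, which was read here as a mean linear level past 300 in either group, a choice that the methods leave undefined. By these criteria 5 members rose, Rab30, Rab3d, Rab4a, Rab24 and Rab1a, and 0 fell, beside 4.91% of all genes risen and 3.10% fallen (8.01% in either direction). With that level required in both groups, 2 members rose (Rab24 and Rab1a). Without Ad-nuclear CREBH replicate 2 or 3, 3 members met these criteria (Rab30, Rab3d and Rab24), and Rab12 met them as a fall without Ad-GFP replicate 1. Rab1a, at 2.01-fold, no longer met them with quantile normalization, with cyclic loess or without Ad-GFP replicate 2. Rab12 also met them as a fall with quantile normalization and with array weights. At an unadjusted p under 0.05 alone (limma), 19 members were higher and 14 lower. The share of all genes at that threshold was not counted, so these counts and those of the role groups below have no background beside them. The intensity-based moderated statistic written out gave the same 16 rises and 11 falls. When each array was centred on its median over the genes tested, an alternative chosen after seeing the data, the median of all genes moved to 0.18, rises went from 51.3% to 62.8% of all calls, and 20 Rab genes rose and 8 fell.

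**Figure D1:**
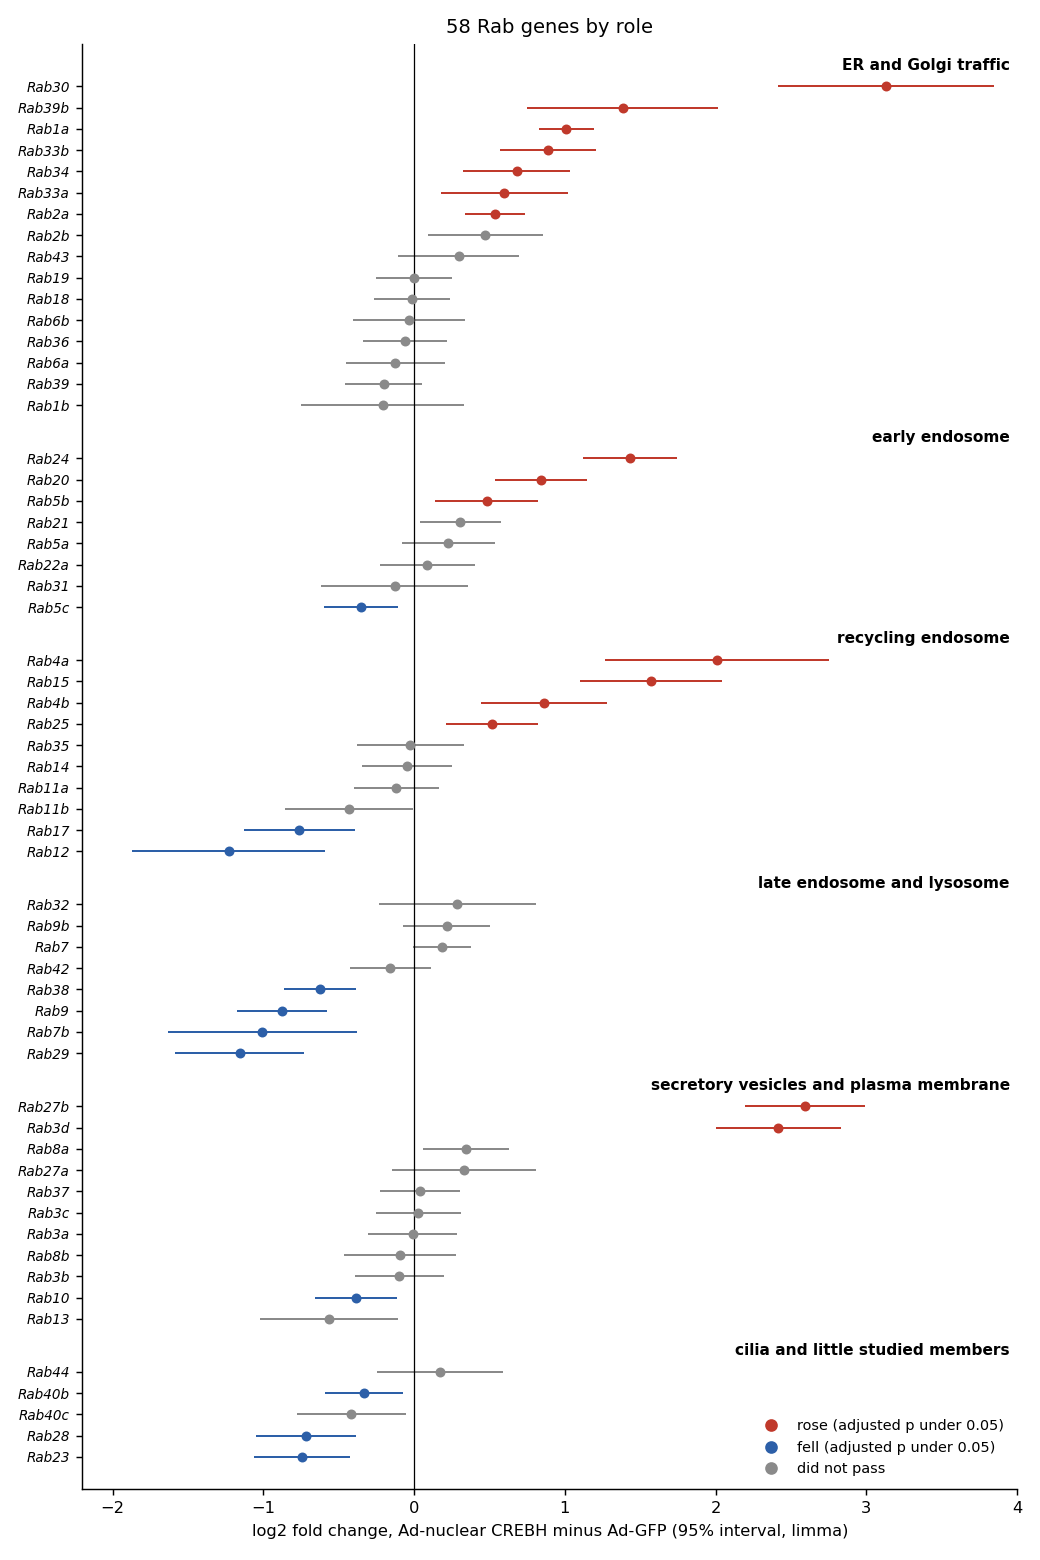
Log2 fold change of each of the 58 Rab genes (Ad-nuclear CREBH minus Ad-GFP, horizontal axis), ordered by role, with 95% intervals from limma. Red points rose, blue points fell and grey points did not pass. ER and Golgi members have 7 red points and 0 blue, and late endosome and lysosome members have 4 blue and 0 red. Over all genes 19.2% rose and 18.2% fell. Rab29, Rab9 and Rab7b, placed with the late endosome and lysosome, are also tied to the Golgi, so the counts depend on placement.

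CREBH belongs to the CREB3 family, whose members bind cAMP response elements and related sequences. The 300 bases around the start sites of Rab genes were therefore searched, from 250 before to 50 after the start, in RefSeq promoters of GRCm38.p6, and 60 windows for 48 members were found. The 4 windows below were chosen after values were seen, from 3 members that rose (Rab3d, Rab24 and Rab25) and 1 that fell (Rab12), to show what such a match looks like on either side of the comparison. Each is printed from 250 bases before the start to 10 after it, 5′ to 3′ on the strand of the gene, here the minus strand for all 4. Capitals mark the half-site TGACG, read on either strand, so that CGTCA is the same match on the other strand.
Rab3d, chr9:21918174-21918433: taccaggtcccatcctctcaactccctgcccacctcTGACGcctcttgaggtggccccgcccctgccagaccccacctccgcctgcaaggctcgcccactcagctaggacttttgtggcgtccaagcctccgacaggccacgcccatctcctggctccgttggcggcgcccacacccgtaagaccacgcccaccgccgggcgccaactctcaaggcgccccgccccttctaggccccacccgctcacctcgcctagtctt
Rab24, chr13:55321971-55322230: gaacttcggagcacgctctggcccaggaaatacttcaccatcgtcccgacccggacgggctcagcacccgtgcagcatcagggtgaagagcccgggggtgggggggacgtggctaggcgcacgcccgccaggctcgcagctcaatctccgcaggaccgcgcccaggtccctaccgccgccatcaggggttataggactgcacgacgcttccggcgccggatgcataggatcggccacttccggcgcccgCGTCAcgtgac
Rab25, chr3:88548270-88548529: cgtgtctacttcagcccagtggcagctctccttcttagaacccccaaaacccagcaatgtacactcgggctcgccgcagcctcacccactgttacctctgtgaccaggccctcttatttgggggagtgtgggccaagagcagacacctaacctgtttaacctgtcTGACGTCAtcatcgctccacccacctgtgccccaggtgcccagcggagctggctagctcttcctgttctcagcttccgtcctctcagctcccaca
Rab12, chr17:66519661-66519920: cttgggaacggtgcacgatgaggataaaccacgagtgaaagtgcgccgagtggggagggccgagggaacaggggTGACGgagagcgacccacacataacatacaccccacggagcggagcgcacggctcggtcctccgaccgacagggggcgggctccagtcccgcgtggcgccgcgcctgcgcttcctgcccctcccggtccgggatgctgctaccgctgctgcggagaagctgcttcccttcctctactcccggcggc
In Rab3d the half-site began 214 bases before the start, in Rab12 it began 176 before it, and in Rab24 the reverse-strand match lay across the start itself. Rab25 held the full element TGACGTCA, which contains overlapping half-sites on both strands, beginning 85 bases before the start. The full element was present in 2 of the 60 Rab windows (Rab25 and Rab5a, 3.33%), beside 1.79% of 32851 mouse promoters. The half-site was present in 26 windows (43.3%), beside 20.8% of all promoters. Rab windows were also richer in G and C, with a median of 61.2% against 52.7%, and held a median of 19.5 CG pairs against 7.0. Members with a half-site were 4 of 12 risen, 6 of 9 fallen and 16 of 27 that did not pass, so the share was lowest among the members that rose. Neither the unfolded protein response element TGACGTGG nor the longer ER stress response element was in any Rab window, read on both strands, beside 0.676% and 0.119% of all promoters. A match is a description of letters and does not show binding.

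Rab genes of ER and Golgi traffic had 7 risen members of 16 (43.8%, beside 19.2% of all genes). Their median log2 fold change was 0.39, and 0 fell, beside 18.2% of all genes. In either direction 43.8% were called, near the 37.4% of all genes. Rab30, a Golgi Rab, gave log2 levels of 6.78, 5.44 and 6.41 with Ad-GFP and of 9.51, 9.25 and 9.25 with Ad-nuclear CREBH. The Ad-GFP dishes spread widely, yet the highest of them stayed far below the lowest Ad-nuclear CREBH dish. The difference was 3.13 on the log2 scale (SE 0.31, adjusted p = 1.4e-04), an 8.74-fold rise and the largest of the family.

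Rab1a, which drives transport from the ER to the Golgi, was at 10.63, 10.55 and 10.66 in Ad-GFP and at 11.55, 11.65 and 11.67 in Ad-nuclear CREBH (log2 levels). Both groups were tight, with SDs of 0.06 and 0.07, and did not overlap. Its change of 1.01 (SE 0.08, adjusted p = 4.9e-05) corresponded to 2.01-fold. Rab39b, known best from neurons, gave log2 levels of 3.29, 3.08 and 3.69 in Ad-GFP and of 5.31, 4.62 and 4.28 in Ad-nuclear CREBH. The means of both groups, 3.35 and 4.73, were below the median of all genes (5.25 in Ad-GFP), where RMA values understate a change. The log2 fold change was 1.38 (SE 0.27, adjusted p = 0.0048).

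Smaller log2 rises in this group were 0.89 for Rab33b (adjusted p = 0.00135), which acts at the Golgi and in autophagosome formation, 0.68 for Rab34 (adjusted p = 0.00885), a Golgi Rab linked to macropinosomes, 0.60 for Rab33a (adjusted p = 0.0326) and 0.54 for Rab2a (adjusted p = 0.00165), which works between the ER and Golgi. The call for Rab33a was lost without any 1 of 5 arrays, all but Ad-GFP replicate 2, with adjusted p from 0.0553 to 0.117. The 9 members that did not pass had log2 fold changes from -0.21 to 0.47 and were Rab1b, Rab2b, Rab6a, Rab6b, Rab18, Rab19, Rab36, Rab39 and Rab43. Rab18, which is found on the ER and on lipid droplets, was at -0.01 (95% interval -0.27 to 0.24). Counts of risen members ranged from 6 to 8 when any 1 array was left out, with 0 fallen in each case, and at an unadjusted p under 0.05 (limma) 0 were lower. Without replicate 1 of both groups 9 rose and 1 fell, and with array weights 9 rose.

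Of 8 early endosome members 3 rose and 1 fell, beside 19.2% of all genes risen and 18.2% fallen (37.4% in either direction). Their median log2 fold change was 0.27. Rab24, an autophagy-linked Rab whose start site is shown above, was at 8.63, 8.27 and 8.22 in Ad-GFP and at 9.84, 9.78 and 9.79 in Ad-nuclear CREBH on the log2 scale. The treated dishes lay within 0.1 of each other and above every control dish. Its log2 fold change was 1.43 (SE 0.14, adjusted p = 1.1e-04), or 2.70-fold. Rab20, which acts in the maturation of phagosomes and endosomes, rose by 0.84 (SE 0.13, adjusted p = 0.0014). Rab5b and Rab5c, which share the task of early endosome fusion, were called in opposite directions, at 0.48 (adjusted p = 0.0347) and -0.35 (adjusted p = 0.0306). Neither call was held by every set of 5 arrays. Rab5b lost it without Ad-GFP replicate 1 or 3 or Ad-nuclear CREBH replicate 2 or 3 (adjusted p 0.0555 to 0.138), and Rab5c without Ad-GFP replicate 2 or 3 or Ad-nuclear CREBH replicate 2 or 3 (adjusted p 0.0931 to 0.119). Rab5a, Rab21, Rab22a and Rab31 did not pass, with log2 fold changes from -0.13 to 0.31.

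Recycling endosome members moved both ways, with 4 risen and 2 fallen of 10 (60.0% called, beside 37.4% of all genes). Rab4a, which serves fast recycling of receptors to the cell surface, gave log2 levels of 6.16, 7.10 and 7.01 in Ad-GFP and of 8.17, 9.15 and 8.98 in Ad-nuclear CREBH. The dish numbered 1 was the lowest in both groups, and the groups did not overlap. The log2 fold change was 2.01 (SE 0.32, adjusted p = 0.0016). Rab12, which takes cargo from recycling endosomes to lysosomes, was at 8.95, 9.74 and 9.71 in Ad-GFP and at 7.72, 8.53 and 8.46 in Ad-nuclear CREBH. Here too the dish numbered 1 was lowest in both groups, and every Ad-nuclear CREBH dish was below every Ad-GFP dish. A change of -1.23 (SE 0.28, adjusted p = 0.00882) was the largest fall of the family, and its promoter is printed above.

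Rab15, a Rab of endocytic recycling, rose from log2 levels of 5.10, 4.44 and 4.85 to 6.54, 6.40 and 6.18, by 1.57 (SE 0.20, adjusted p = 5.2e-04). No Ad-GFP dish reached the lowest Ad-nuclear CREBH dish. Rab17, an epithelial Rab of transcytosis, was at 5.19, 5.43 and 5.08 in Ad-GFP and at 4.66, 4.40 and 4.36 in Ad-nuclear CREBH, which is a change of -0.76 (SE 0.16, adjusted p = 0.00631). The Rab17 means of both groups were below the median of all genes. Rab4b, the relative of Rab4a, rose by 0.86 on the log2 scale (adjusted p = 0.00624), and Rab25, an epithelial recycling Rab, by 0.52 (adjusted p = 0.0155) from a dim level of 3.12 to 3.64. The call for Rab25 was lost without Ad-GFP replicate 2 (adjusted p = 0.0582). Rab11a and Rab11b, the Rabs of slow recycling, did not pass at -0.12 and -0.43, nor did Rab14 at -0.05 and Rab35 at -0.03.

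**Figure D2:**
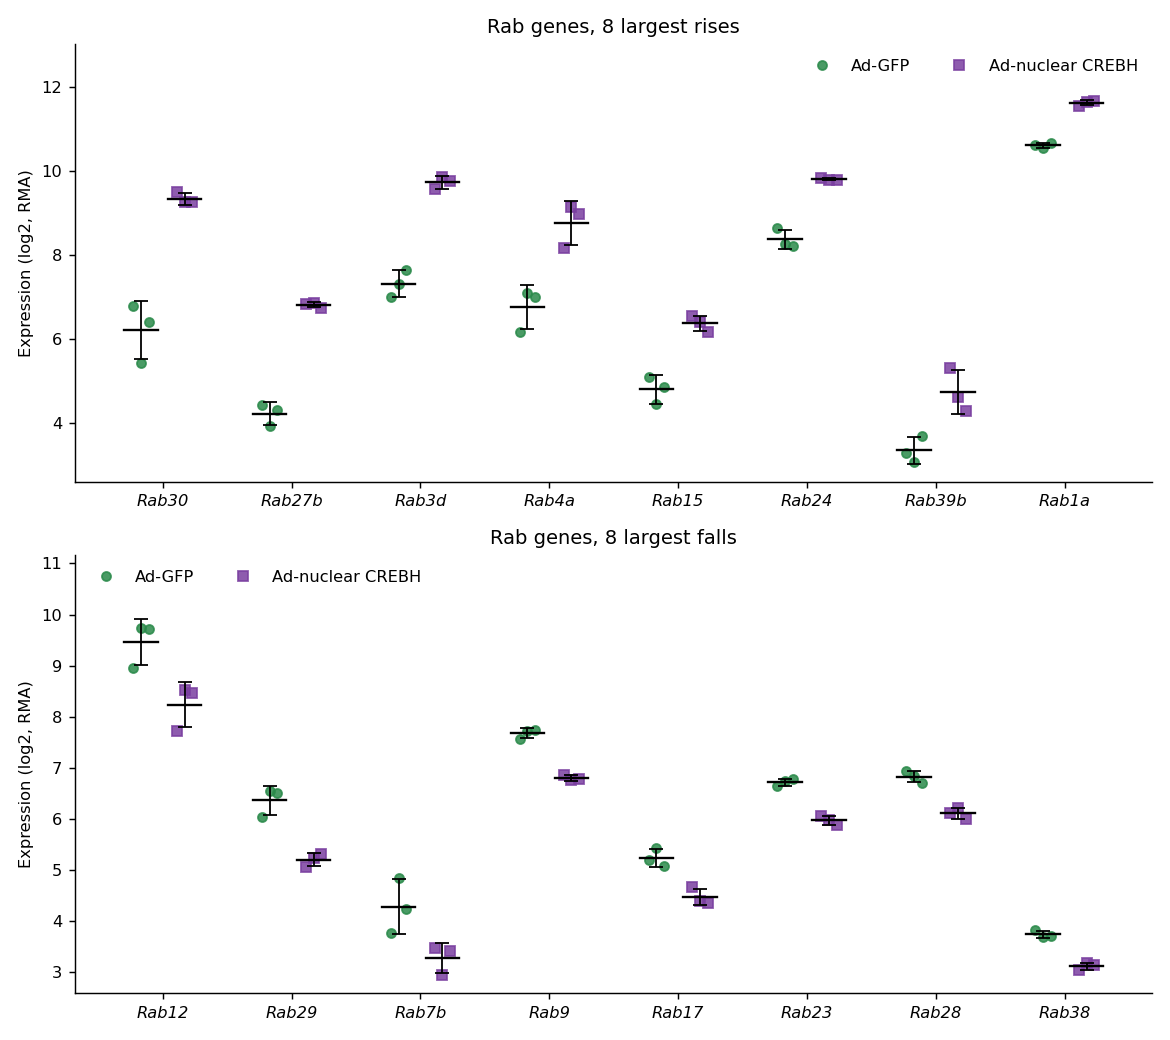
Log2 expression (RMA) of the 8 Rab genes with the largest rises and the 8 with the largest falls, each point 1 array, with the mean (horizontal line) and SD (bar) of 3 arrays per group. For all 16 genes the Ad-GFP and Ad-nuclear CREBH points do not overlap, with Rab30 furthest apart among the rises at 3.13 and Rab12 among the falls at -1.23.

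Among the 8 late endosome and lysosome members 4 fell and 0 rose, beside 18.2% of all genes fallen and 19.2% risen. These 4 were also all that was called in either direction, beside 37.4% of all genes. The median log2 fold change of the group was -0.39. Rab29, linked to the Golgi and lysosomes, was at 6.03, 6.56 and 6.50 in Ad-GFP and at 5.06, 5.23 and 5.32 in Ad-nuclear CREBH on the log2 scale. The 3 Ad-nuclear CREBH dishes were all lower, by a mean of 1.16 on the log2 scale in the fit (log2 fold change -1.16, SE 0.18, adjusted p = 0.00157). Rab9, which returns receptors from late endosomes to the trans-Golgi network, was at 7.57, 7.73 and 7.74 in Ad-GFP and at 6.87, 6.77 and 6.77 in Ad-nuclear CREBH. Its groups were narrow and separate, and Rab9 changed by -0.88 on the log2 scale (SE 0.13, adjusted p = 0.00107).

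Rab7b, which also acts between late endosomes and the trans-Golgi network, was at 3.78, 4.85 and 4.23 in Ad-GFP and at 3.47, 2.95 and 3.42 in Ad-nuclear CREBH. It was a dim gene with scattered dishes, and its change of -1.01 (SE 0.27, adjusted p = 0.0199) lost its call without Ad-nuclear CREBH replicate 2 (adjusted p = 0.0774). Rab38, a Rab of lysosome-related organelles, read 3.82, 3.70 and 3.71 in Ad-GFP and 3.04, 3.18 and 3.14 in Ad-nuclear CREBH on the log2 scale. Although dim, it was tight within groups and did not overlap between them (log2 fold change -0.62, SE 0.10, adjusted p = 0.00189). Rab7, the main Rab of late endosome and lysosome fusion, did not pass at 0.19 (95% interval -0.01 to 0.38, adjusted p = 0.122), although its 3 Ad-nuclear CREBH values lay above its 3 Ad-GFP values. Rab32, Rab9b and Rab42 did not pass either, at 0.29, 0.22 and -0.16. With any 1 array left out, 3 or 4 members of this group fell and 0 rose, and at an unadjusted p under 0.05 (limma) 0 were higher. However, 1 rose with array weights, without replicate 1 of both groups and with arrays centred over the genes tested, and 2 of the falls remained among genes at or above the median level, where the dim Rab7b and Rab38 were not tested.

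Secretory vesicle and plasma membrane Rabs included the largest rises of the family after Rab30 but were otherwise mostly not called. In this group 2 rose, 1 fell and 8 did not pass (27.3% called, beside 37.4% of all genes). Rab27b, which docks secretory granules and exosome-bearing endosomes at the cell surface, was at 4.44, 3.92 and 4.32 in Ad-GFP and at 6.83, 6.86 and 6.75 in Ad-nuclear CREBH on the log2 scale. It thus passed from below the median of all genes to above it, and changed by 2.59 on the log2 scale (SE 0.17, adjusted p = 2.8e-05). Rab3d, a Rab of regulated exocytosis best known from exocrine cells, was at 6.99, 7.32 and 7.63 in Ad-GFP and at 9.56, 9.86 and 9.76 in Ad-nuclear CREBH. Every treated dish was above every control dish, by 2.42 on average (SE 0.18, adjusted p = 4.0e-05), or 5.34-fold. Rab10, which carries vesicles from the Golgi to the plasma membrane, was called at -0.39 (adjusted p = 0.0327), but not without any 1 of 5 arrays, all but Ad-nuclear CREBH replicate 2 (adjusted p 0.0508 to 0.107). The others ran from -0.56 for Rab13, which serves tight junctions, to 0.34 for Rab8a, which carries Golgi vesicles to the plasma membrane.

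The remaining 5 members, tied to cilia or little studied, had 3 falls and 0 rises, with 0 also higher at an unadjusted p under 0.05 (limma). The falls were 60.0% of these 5 members, beside 18.2% of all genes. Rab23, a ciliary Rab that restrains Hedgehog signalling, was at 6.64, 6.74 and 6.77 in Ad-GFP and at 6.06, 5.99 and 5.88 in Ad-nuclear CREBH on the log2 scale. Rab28, also found at cilia, was at 6.93, 6.85 and 6.71 and at 6.12, 6.21 and 6.00 in the same order. Both were lower in all 3 Ad-nuclear CREBH dishes, with log2 fold changes of -0.74 (SE 0.14, adjusted p = 0.00341) and -0.72 (SE 0.14, adjusted p = 0.00491). Rab40b was called at -0.33 (adjusted p = 0.049) but kept its call only when Ad-GFP replicate 1 was the array left out. Rab40c and Rab44 did not pass, at -0.42 and 0.17.

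Over the family, 6 of the 27 called members and 12 of the 31 others were below the median level of all genes in both groups. The 31 members that did not pass had log2 fold changes from -0.56 to 0.47, and their 95% intervals reached from -1.02 to 0.86, so 2-fold changes are within the widest of them. For 5 of them the groups did not overlap (Rab2b, Rab8a, Rab21 and Rab7 higher, Rab40c lower). With 1 array left out in turn, 20 of the 27 called members stayed called each time.

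Closely related Rab genes were compared as pairs. Among 21 pairs of paralogs measured, 1 pair was called in opposite directions (Rab5b and Rab5c). Another 2 pairs were called in the same direction (Rab4a with Rab4b, Rab33a with Rab33b), 12 had only 1 member called, and 6 had none. Of all members 46.6% were called, and such pairs were not counted among other genes, so the pair counts have no background beside them. Some genes stand in more than 1 pair, so the pairs are not separate observations. Since different probes read different genes, the log2 difference within a pair is given only for its change between the groups, as a description. Cross-hybridisation between paralogs was not tested.

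Rab3d rose while the neuronal exocytosis Rabs Rab3a, Rab3b and Rab3c were at -0.01, -0.10 and 0.03. Rab3a, Rab3b and Rab3c were all below the median of all genes in both groups, where a change is understated. The within-array difference between Rab3a and Rab3d changed by -2.43 (SE over arrays 0.19), nearly all of it from Rab3d. Rab27b rose while Rab27a, which docks lysosome-related granules, was at 0.33 (adjusted p = 0.261), and the difference between Rab27a and Rab27b changed by -2.26 (SE over arrays 0.36). For the ER-to-Golgi pair, Rab1a exceeded the log2 value of Rab1b by 1.40, 0.53 and 0.82 in Ad-GFP and by 2.42, 2.09 and 1.92 in Ad-nuclear CREBH. The pair thus moved apart by 1.22 (SE over arrays 0.30), with Rab1b itself at -0.21 (adjusted p = 0.542). Rab9 and Rab9b moved the other way, by -1.09 (SE over arrays 0.08), since Rab9 fell and Rab9b did not pass. Rab27a and Rab9b were also below the median of all genes in both groups.

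**Figure D3:**
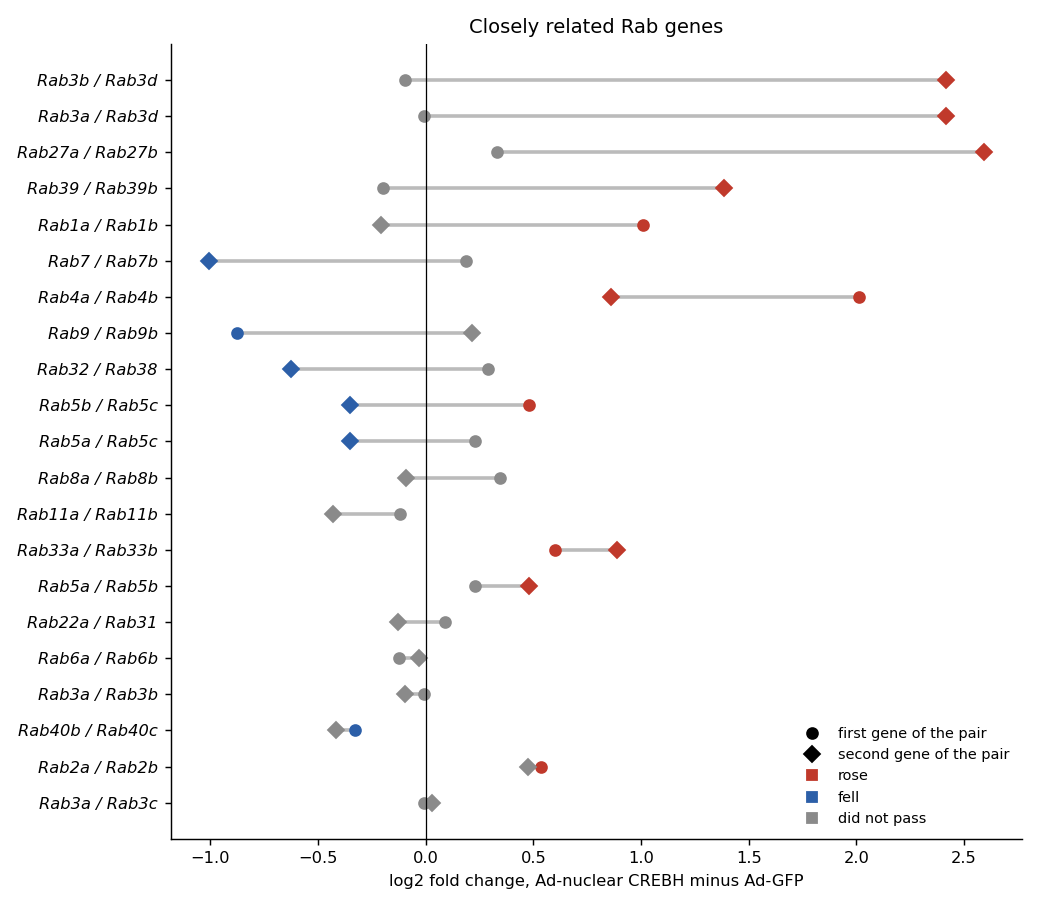
Log2 fold changes (Ad-nuclear CREBH minus Ad-GFP) of both genes of 21 pairs of closely related Rab genes, joined by a grey line, with the pairs that lie furthest apart at the top. Circles are the first gene named and diamonds the second, coloured by whether the gene rose, fell or did not pass. Rab3d, Rab27b, Rab39b and Rab1a stand to the right of paralogs that did not pass. Of those paralogs, Rab3a, Rab3b, Rab27a and Rab39 were below the median of all genes in both groups.

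Proteins that switch Rabs on and off were called more often than not among the GAPs. Of 40 Rab GAPs measured 18 rose, 9 fell and 13 did not pass (67.5% called, beside 37.4% of all genes), with a median log2 fold change of 0.20. The largest rises were 2.54 for Tbc1d9, 2.46 for Tbc1d30, 2.02 for Tbc1d8 and 1.90 for Tbc1d20, which acts on Rab1 and Rab18. Tbc1d9 was at 7.85, 5.67 and 6.06 in Ad-GFP and at 8.76, 9.31 and 9.14 in Ad-nuclear CREBH on the log2 scale. Its rise (adjusted p = 0.00469) went to 3.20 without Ad-GFP replicate 1, the high control dish. The largest falls were -1.53 for Tbc1d19, -1.33 for Evi5, a GAP linked to Rab11, -1.17 for Tbc1d2b and -0.85 for Rabgap1. Adjusted p for these 4 falls ranged from 9.7e-05 to 0.0294, and the call for Tbc1d2b was lost without any 1 array other than Ad-GFP replicate 1 (adjusted p 0.0704 to 0.0977).

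Of 32 Rab GEFs 12 rose and 3 fell (46.9% called, beside 37.4% of all genes), with a median log2 fold change of 0.18. Dennd3, the GEF of Rab12, rose from a mean of 5.53 to 7.53 on the log2 scale (SE of the difference 0.20, adjusted p = 1.3e-04), whereas Rab12 itself fell. Ric1, part of the Golgi GEF for Rab6, rose by 1.59 (SE 0.10, adjusted p = 2.2e-05), with Rab6a and Rab6b not called. Hps4, of the complex that activates Rab32 and Rab38, and Rin3, a GEF of the Rab5 group, both rose by 1.44. Dennd1a and Dennd1b, GEFs of Rab35, fell (-1.39 and -0.63), and so did Gapvd1, a Rab5 GEF (-0.42), whose call was lost without Ad-GFP replicate 3 or Ad-nuclear CREBH replicate 2 or 3 (adjusted p 0.0521 to 0.0873). Without Ad-GFP replicate 1, 6 GEFs fell.

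Of 6 carriers and prenylation factors 2 rose and 1 fell, beside 37.4% of all genes called in either direction. Without Ad-nuclear CREBH replicate 1, 2 of them fell. Chml, an escort protein that presents new Rabs for prenylation, was at 7.27, 7.34 and 7.38 in Ad-GFP and at 4.70, 4.61 and 4.15 in Ad-nuclear CREBH on the log2 scale. All treated dishes were thus far lower, and Chml changed by -2.84 on the log2 scale (SE 0.18, adjusted p = 2.4e-05). Rabac1, a Golgi receptor for prenylated Rabs, rose by 1.54 (SE 0.11, adjusted p = 3.1e-05), and Gdi2, which extracts inactive Rabs from membranes, by 0.45 (adjusted p = 0.00284).

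Rab effectors split evenly, with 14 risen and 14 fallen of 46 (60.9% called, beside 37.4% of all genes). Only 8 fell without Ad-GFP replicate 3 or Ad-nuclear CREBH replicate 2 or 3, and 9 rose without Ad-nuclear CREBH replicate 2. Sytl5, a synaptotagmin-like effector of Rab27, was at 8.48, 9.03 and 8.93 in Ad-GFP and at 3.83, 3.45 and 3.68 in Ad-nuclear CREBH on the log2 scale. It went from well above the median of all genes to below it, which is a change of -5.16 (SE 0.19, adjusted p = 9.4e-06), while Rab27b rose. Rilpl1, of the family of lysosomal and ciliary Rab effectors, rose by 2.48 (SE 0.18, adjusted p = 3.7e-05). The next rises were 1.33 for Golga4, 1.26 for Golgb1 and 1.13 for Golga2, all golgins, the long tethers that hold Golgi vesicles. Gcc2, also a golgin, fell (-0.48, adjusted p = 0.0116). Its call was lost without Ad-GFP replicate 3 or Ad-nuclear CREBH replicate 2 or 3 (adjusted p 0.0526 to 0.061). The next falls had log2 fold changes of -1.56 for the Rab11 effector Rab11fip5, -1.41 for the Rab5 effector Eea1 and -1.13 for Rabep1, an effector of Rab5 and Rab4. Other effectors of endosomal Rabs rose, with 0.84 for Rab11fip1, 0.78 for Rab11fip4, 0.67 for Rbsn and 0.58 for Rufy1. Without Ad-nuclear CREBH replicate 2 or 3 the calls were lost for Rab11fip1 (adjusted p 0.0506 to 0.0508) and Rufy1 (0.0508 to 0.0533). Rab11fip4, dim in both groups, lost its call without Ad-GFP replicate 2 or 3 or Ad-nuclear CREBH replicate 2 (adjusted p 0.0642 to 0.0789). Of 6 Rab-like genes outside the symbol rule 3 rose (Rasef 1.75, Rabl6 0.94 and Rabl3 0.43) and 1 fell (Ift22 -0.79). These are 66.7% called, beside 37.4% of all genes.

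**Figure D4:**
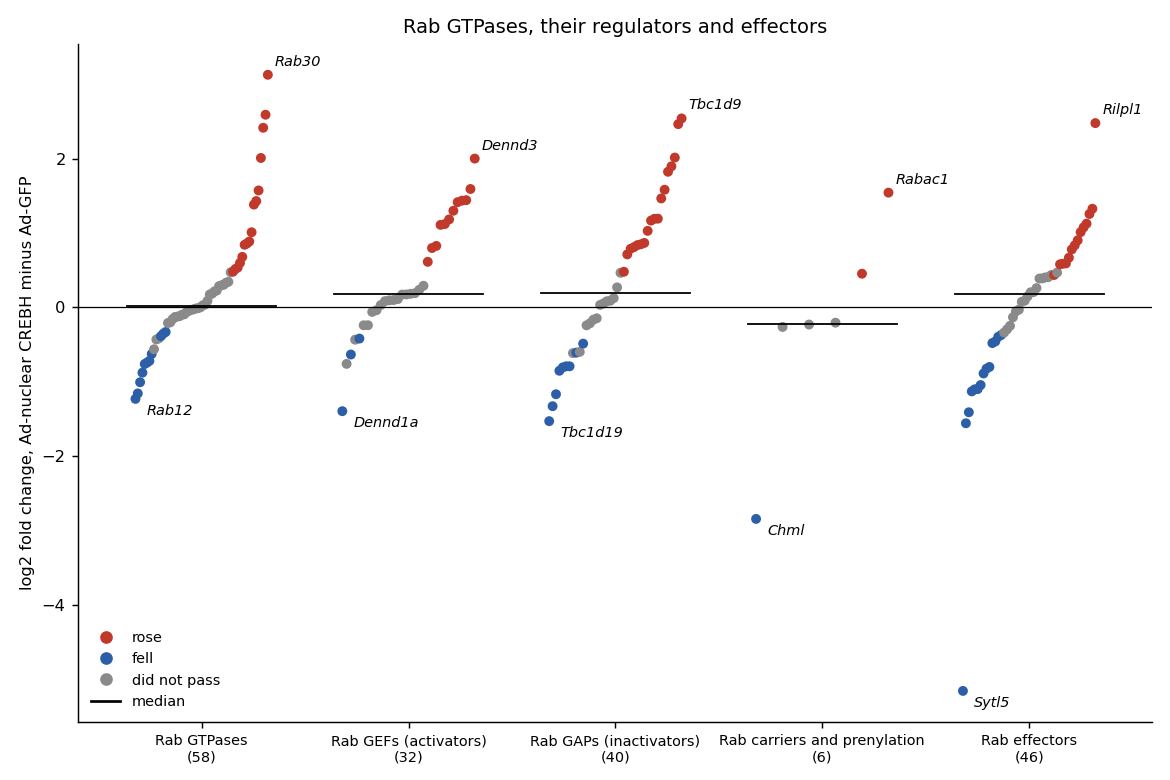
Log2 fold changes (Ad-nuclear CREBH minus Ad-GFP, vertical axis) of the 58 Rab genes, 32 GEFs, 40 GAPs, 6 carriers and prenylation factors and 46 effectors, each point 1 gene sorted within its set, with the median as a black line. The points of Sytl5 at -5.16 and Chml at -2.84 lie below all others shown.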

How the data were processed

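Expression was measured on Affymetrix Mouse Gene 1.1 ST arrays, 3 per group. The authors deposited log2 values made with RMA, named without a version in the submitters' processing notes, which corrects background, normalizes between arrays and summarizes probes. Which probe definition it used is not given in the sources. The methods name other RNA and labeling kits than the sample labels. The values hold no background flag, and changes of dim genes are understated. Of 35556 features 21218 carried 1 symbol in the platform annotation (1881 several, 12457 none), and the brightest was kept per gene.

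All 18820 genes were fitted with limma 3.58.1 in R 4.3.3, without covariates, and variances were moderated by eBayes with trend. Calls were a Benjamini-Hochberg adjusted p under 0.05. The scripts were tested on simulated data. Every called member was named, with array values for the 8 largest rises and 8 largest falls. Up to 4 largest rises and 4 largest falls were named per other list, and further effectors where relatives went the other way. Role groups, lists and pairs came from textbook knowledge, and each Rab gene was placed in a single role group even where it acts in several compartments. The members and lists were chosen with earlier results of these data known. Deviations from the group means correlated at 0.18, 0.07 and 0.14 between same-numbered dishes and at -0.17 to 0.12 between differently numbered ones. Every differently numbered comparison with a dish numbered 1 was negative (-0.17 to -0.10). Deviations from a group mean cancel over its arrays, so a positive value at the same number makes the others negative on balance. The negative values are therefore not separate evidence. Dishes were not treated as pairs in the main fit, and a shared shift of the dishes numbered 1 was not tested. Alternatives covered the variance prior, array weights, replicate block, normalization, features per gene, level filter, thresholds and each array left out. Figures used matplotlib 3.10.9.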

Additional observations from a re-analysis of the deposited data

Results flagged for a closer look

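The dimmer features of Rab2a and Rab5b, which entered no comparison above, also read higher in Ad-nuclear CREBH than in the Ad-GFP control, without overlap between the groups. In a limma fit over all 21218 features with 1 symbol, the log2 fold change was 0.61 for Rab2a (adjusted p = 9.9e-04), beside 0.54 at its brighter feature, and 0.45 for Rab5b (adjusted p = 0.0358), beside 0.48.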

How the results depend on the processing

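No called Rab gene changed sign under the alternatives run, and 23 of the 27 stayed called under every alternative that left out no array and tested the gene. Risen members ranged from 13 to 22 and fallen members from 8 to 14, except that 7 fell at an adjusted p under 0.01. By the study's criteria 2 members rose with the linear mean over 300 in both groups, and 1, Rab29, fell with no expression minimum. With 1 array left out, risen members by these criteria ranged from 3 to 6 and fallen members from 0 to 1, and 1 fell without replicate 1 of both groups, an alternative chosen after seeing the data. With the replicate number as a block, 18 rose and 11 fell, of which 16 and 10 were called without it, and 1, Rab12, fell by the study's criteria. Not every array deviated most like its own number. Regulators and effectors that fell numbered 27 and ranged from 17 (without Ad-GFP replicate 3 or Ad-nuclear CREBH replicate 3) to 32 with 1 array left out. Array weights called 22 risen and 14 fallen, and leaving out both arrays numbered 1 called 21 and 14. Signal over background limits the dim members, whose level RMA does not bound, and the causes of these shifts were not tested.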
